A study of Homo sapiens with 24 samples.

Results

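The genes described here are DDIT4 and 9 components or regulators of mTOR complex 1 (mTORC1), namely TSC1, TSC2, RHEB, MTOR, RPTOR, DEPTOR, AKT1S1, SESN1 and RRAGD. These 10 genes were taken by symbol from the 23106 gene symbols in the count files, and DDIT4 was chosen by its high count in hypoxia + DMSO relative to normoxia + DMSO in these data, so its hypoxia values are a description and carry no test. All 10 symbols were found, and 9 of them were among the 11735 genes that passed the filter on low counts. RRAGD did not pass.

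RNA sequencing of polyadenylated RNA was carried out in RCC4+VHL cells, a clone of the RCC4 renal cell carcinoma line into which VHL was stably reintroduced. All 4 groups shared this genotype and 6 h of incubation, with 6 independent replicates each. The normoxia + DMSO group was kept at 21% oxygen with 0.1% DMSO, the vehicle, and the normoxia + ITE group at 21% oxygen with 100 nM ITE, an agonist of the aryl hydrocarbon receptor. The hypoxia + DMSO and hypoxia + ITE groups received the same agents at 0.5% oxygen. VHL marks the alpha subunits of hypoxia-inducible factor (HIF) for degradation when oxygen is present, and the study set hypoxia and ITE against each other, alone and together.

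mTORC1 is a kinase complex that promotes protein synthesis and growth when amino acids, growth factors and energy are sufficient. MTOR is its kinase and RPTOR, or raptor, its substrate-binding scaffold, while DEPTOR and AKT1S1, also called PRAS40, are inhibitory subunits. The small GTPase RHEB activates the complex at the lysosome, and the TSC1 and TSC2 proteins form the complex that switches RHEB off. DDIT4, also called REDD1, is induced by hypoxia and other stresses and restrains mTORC1 through the TSC complex. SESN1 belongs to the sestrins, stress-induced proteins that restrain mTORC1 through amino acid sensing, and RRAGD is a Rag GTPase that helps to bring mTORC1 to the lysosome.

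Library totals ranged from 770094 to 93851342 counts, with a median of 7981993, and were lowest in hypoxia + DMSO replicate 2 and hypoxia + ITE replicate 1 (1357702). A total of 3 counts, taken as the detection limit, corresponded to between 0.0320 and 3.90 CPM, counts per 1e6 counts of the library, for counting error only. Of the genes chosen to check the hypoxia label, 4 of 4 tested were higher in both hypoxia comparisons (EGLN3 and CA9, the other 2 listed, were at 0 in 20 and 23 of 24 libraries), and of those for ITE, 3 of 3 were higher in normoxia and 2 of 3 in hypoxia. The summed level of 5 renal epithelial markers was between 1154 and 4094 CPM. That of 7 immune, endothelial and stromal markers was between 12.4 and 52.1 CPM. Of these 7, PTPRC, CD3E and PECAM1 were at 0 in 23 of 24 libraries, and CDH5 was at 0 in 18. CD68, ACTA2 and COL1A1 passed the filter on low counts, with means over all libraries from 2.95 (COL1A1) to 11.9 CPM (CD68). Hypoxia + ITE replicate 6 stood apart: the deviations of its genes from the group mean were related to transcript GC content (Spearman's rho 0.67 across genes, which are not independent replicates). Hypoxia + DMSO replicate 1 had deviations related to transcript length (rho -0.46). Other libraries showed relations of similar size to the latter: hypoxia + ITE replicates 4 (rho -0.47 with GC content and 0.46 with length) and 5 (-0.41 and 0.38), and replicate 3 (-0.43 with length). For several log2 fold changes of the genes described here, though not all, the value without hypoxia + DMSO replicate 1 or hypoxia + ITE replicate 6 is given too.

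DDIT4 (ENSG00000168209) lies on the plus strand of chromosome 10 at 74033678 to 74035794 in GRCh37. The sequence upstream of its start site is shown because HIF and the aryl hydrocarbon receptor recognise short, similar core motifs. The study found that HIF sites favoured ACGTG and that the receptor preferred GCGTG. The letters of both were searched on both strands. It is set beside that of RHEB, the target of the TSC complex. Both are the 250 bases before the RefSeq start site in GRCh38.p14, chr10:72273674-72273923 on the plus strand for DDIT4 and chr7:151519896-151520145 on the minus strand for RHEB. They are written in the direction of transcription, with the motif letters, or their reverse complement, in capitals.

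DDIT4: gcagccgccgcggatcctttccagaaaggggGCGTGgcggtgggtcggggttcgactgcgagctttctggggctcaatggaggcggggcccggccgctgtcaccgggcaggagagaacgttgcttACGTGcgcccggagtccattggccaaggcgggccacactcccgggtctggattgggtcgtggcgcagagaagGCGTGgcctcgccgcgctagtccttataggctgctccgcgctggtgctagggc
RHEB: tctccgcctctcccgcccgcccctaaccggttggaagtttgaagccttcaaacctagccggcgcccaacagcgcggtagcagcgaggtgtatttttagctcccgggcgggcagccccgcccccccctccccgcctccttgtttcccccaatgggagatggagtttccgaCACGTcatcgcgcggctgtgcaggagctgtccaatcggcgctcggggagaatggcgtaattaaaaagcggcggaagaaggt

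The DDIT4 window held 1 ACGTG, ending 121 bases before the start site, and 2 GCGTG, ending 215 and 49 bases before it. The RHEB window held 1 ACGTG on the opposite strand, 77 bases before the start site, and no GCGTG. Of the other genes with a window, the first of TSC2 held 2 ACGTG matches, which overlap on opposite strands, MTOR held 1 GCGTG, RPTOR 2, and 1 of the windows of SESN1 held 1, while TSC1 held neither. Over 35116 windows of the same length, 18.5% held an ACGTG, 32.2% a GCGTG and 7.52% both, so that matches of each kind were common. A match describes letters in this window and is not a measured binding site. The study shows DDIT4 as an example of a locus bound by both HIF and the receptor in chromatin immunoprecipitation sequencing. Those data were not used here.

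DDIT4 was low in every normoxic library and high in every hypoxic library. In normoxia + DMSO its level was lowest at 23.5 CPM, with a median of 31.7 and a highest value of 41.1 CPM. Normoxia + ITE gave 27.1, 29.7 and 42.1 CPM in the same order. The lowest, median and highest values in hypoxia + DMSO were 329.6, 373 and 414 CPM. Those in hypoxia + ITE were 201, 305 and 362 CPM. No hypoxic library overlapped with a normoxic library, and the lowest hypoxic values were in hypoxia + ITE replicates 1 (201 CPM) and 6 (207 CPM).

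The mean of DDIT4 over 6 libraries was 32.4 ± 5.85 CPM (SD) in the DMSO group kept in normoxia and 373 ± 40.2 CPM (SD) in that kept in hypoxia, a log2 fold change of 3.53 (SE 0.17, 95% interval 3.18 to 3.87), or 11.5-fold. With ITE the means were 32.6 ± 6.42 CPM in normoxia and 287 ± 69.6 CPM in hypoxia, a log2 fold change of 3.14 (SE 0.17, 95% interval 2.80 to 3.48), or 8.80-fold. These 2 hypoxia comparisons share no library. DDIT4 ranked 3rd of 11735 genes by log2 fold change without ITE and 5th with ITE. It was the 1 of 9 tested genes described here past the adjusted threshold of 0.05 in hypoxia without ITE, where 1.3% of all tested genes were called (1.16% higher and 0.136% lower). Its groups did not overlap, as for 2.74% of all genes without ITE and 2.13% with ITE. Because DDIT4 was chosen for this response, the counts describe the choice. As the RNA came from whole cultures, DDIT4 RNA in more cells and more DDIT4 RNA per cell cannot be told apart.

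ITE left the level of DDIT4 in normoxia within its spread: the log2 fold change was 0.02 (SE 0.16, 95% interval -0.30 to 0.34, edgeR adjusted p = 0.9998). In hypoxia the mean was lower with ITE than with DMSO, 287 against 373 CPM, a log2 fold change of -0.37 (SE 0.15, 95% interval -0.68 to -0.06), or 0.774-fold. This difference did not pass the threshold (unadjusted p = 0.0218, edgeR adjusted p = 0.494), and the groups overlapped: 3 of the ITE libraries lay within the range of the DMSO libraries. It also shares the hypoxia + DMSO libraries with the comparison on which DDIT4 was chosen. Without hypoxia + DMSO replicate 2 and hypoxia + ITE replicates 1 and 6 together, the log2 fold change was -0.16. These libraries were chosen after seeing the data, and hypoxia + ITE replicates 1 and 6 held the lowest DDIT4 of their group. With offsets for GC content and length the log2 fold change was -0.53 (edgeR adjusted p = 0.699). Leaving out 1 library at a time gave -0.44 to -0.29 (edgeR adjusted p 0.250 to 0.9997). The hypoxia change with ITE minus that without ITE was -0.39 on the log2 scale (SE 0.22, 95% interval -0.84 to 0.05), given as a description.

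**Figure D1:**
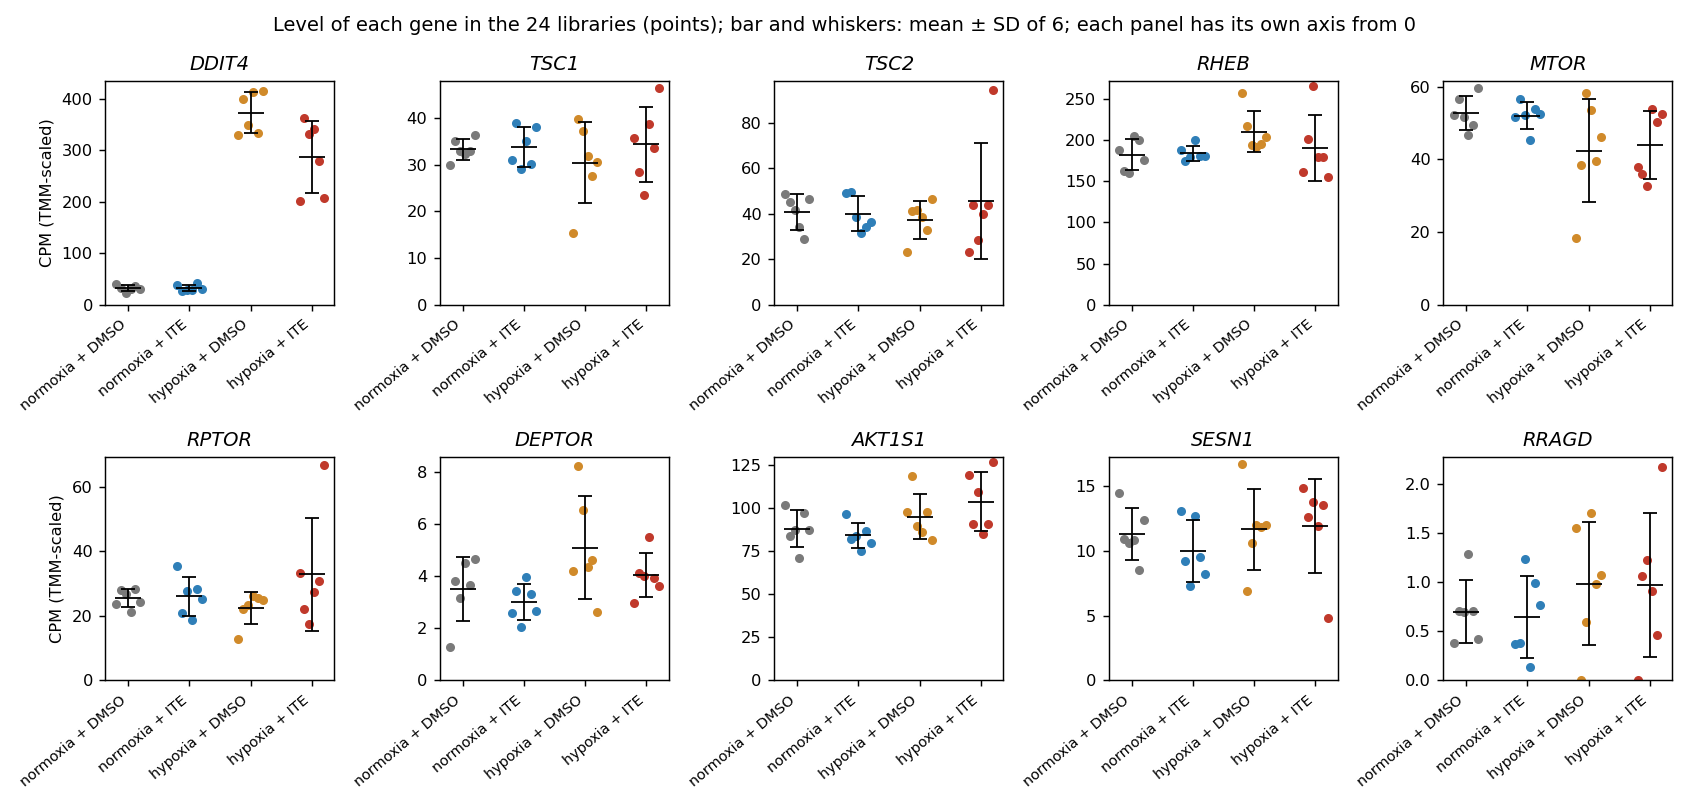
Level of each of the 10 genes in CPM (TMM-scaled, vertical axis from 0 in every panel) in the 24 libraries (points), by group, with the mean and SD of 6 libraries. DDIT4 lies between 23.5 and 42.1 CPM in the normoxic libraries and between 201 and 414 CPM in the hypoxic libraries, whereas the groups of the other 9 genes overlap.

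Divided by transcript length, the levels of the genes could be set in order. RHEB was highest in normoxia + DMSO at 89.0 ± 9.21 CPM per kb (SD, n = 6), followed by AKT1S1 at 49.5 ± 6.10 and DDIT4 at 18.5 ± 3.34 CPM per kb. These 3 genes did not overlap with each other. TSC2 (6.37 CPM per kb) and MTOR (6.04) came next with overlapping ranges, then TSC1 (3.87) and RPTOR (3.72), whose ranges also overlapped. SESN1 (1.99) and DEPTOR (1.37) overlapped as well, and RRAGD was lowest at 0.143 CPM per kb. In hypoxia + DMSO the level of DDIT4 was 213 ± 23.0 CPM per kb, above RHEB at 103 ± 12.2 and AKT1S1 at 53.4 ± 7.38 CPM per kb.

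The order of DDIT4 and RHEB thus differed between oxygen levels in every library. The ratio of DDIT4 to RHEB per kb ranged from 0.172 to 0.255 in normoxia + DMSO and from 0.166 to 0.273 in normoxia + ITE. It ranged from 1.50 to 2.51 in hypoxia + DMSO and from 1.46 to 2.22 in hypoxia + ITE. Relative to TSC2, DDIT4 had a median ratio per kb of 2.86 in normoxia + DMSO and 36.3 in hypoxia + DMSO, and of 3.01 and 30.9 with ITE. Among 11457 genes with a known transcript length, DDIT4 ranked 3767th per kb in normoxia + DMSO and 352nd in hypoxia + DMSO, and 3749th and 513th with ITE.

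Of the TSC complex, TSC1 varied little in normoxia and more in hypoxia. TSC1 had a lowest, median and highest level of 29.9, 32.8 and 36.4 CPM in normoxia + DMSO, and of 29.1, 33.0 and 39.0 CPM in normoxia + ITE. The corresponding values were 15.3, 31.2 and 39.9 CPM in hypoxia + DMSO and 23.4, 34.6 and 46.4 CPM in hypoxia + ITE. The ranges of all 4 groups overlapped. With ITE, hypoxia changed TSC1 by 0.02 on the log2 scale (SE 0.17, edgeR adjusted p = 0.973), and without ITE the value was -0.16 (SE 0.17), or -0.03 without hypoxia + DMSO replicate 1, the library at 15.3 CPM.

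TSC2, the GTPase-activating subunit, ranged from 28.9 to 48.7 CPM around a median of 43.6 in normoxia + DMSO and from 31.6 to 49.7 CPM around 37.6 in normoxia + ITE. In hypoxia + DMSO it ranged from 23.1 to 46.3 CPM around 39.9, and in hypoxia + ITE from 23.0 to 94.6 CPM around 41.7. The groups overlapped, and the value of 94.6 CPM was that of hypoxia + ITE replicate 6. Hypoxia with ITE gave TSC2 a log2 fold change of 0.20 (SE 0.23, edgeR adjusted p = 0.653) which became -0.10 without that library. In hypoxia without ITE it was -0.14 (SE 0.23), and -0.03 without hypoxia + DMSO replicate 1, the lowest of its group at 23.1 CPM.

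RHEB had the highest level per kb of the other 9 genes in every group. Its lowest, median and highest levels were 160, 182 and 205 CPM in normoxia + DMSO and 175, 181 and 201 CPM in normoxia + ITE. They were 192, 199.9 and 257 CPM in hypoxia + DMSO and 155, 179.9 and 266 CPM in hypoxia + ITE. The highest values came from hypoxia + DMSO replicate 1 and hypoxia + ITE replicate 3, and the ranges overlapped. In hypoxia RHEB had a log2 fold change of 0.21 without ITE (SE 0.12), or 0.14 without hypoxia + DMSO replicate 1, and of 0.06 with ITE (SE 0.12, edgeR adjusted p = 0.828).

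For the core of the complex, the means of MTOR were lower in hypoxia in both comparisons. MTOR had a lowest, median and highest level of 46.7, 52.0 and 59.5 CPM in normoxia + DMSO, and of 45.4, 52.4 and 56.6 CPM in normoxia + ITE. In hypoxia + DMSO these were 18.4, 42.7 and 58.3 CPM, and in hypoxia + ITE 32.8, 44.0 and 53.9 CPM. Low and normoxia-like levels were found among the libraries of each hypoxic group. The log2 fold change was -0.30 without ITE (SE 0.18, 95% interval -0.66 to 0.06) and -0.24 with ITE (SE 0.17, 95% interval -0.60 to 0.12, edgeR adjusted p = 0.453). Without hypoxia + DMSO replicate 1, the library at 18.4 CPM, the first of these was -0.14. The value with ITE was -0.29 without hypoxia + ITE replicate 6.

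RPTOR ranged from 21.3 to 28.3 CPM in normoxia + DMSO (median 25.6) and from 18.6 to 35.5 CPM in normoxia + ITE (median 26.5). Hypoxia + DMSO gave 12.9 to 26.1 CPM (median 24.1), and hypoxia + ITE gave 17.5 to 66.6 CPM (median 29.0). The extremes were hypoxia + DMSO replicate 1 and hypoxia + ITE replicate 6. Between the hypoxic groups RPTOR had a log2 fold change with ITE of 0.51 (SE 0.24, 95% interval 0.02 to 0.99, unadjusted p = 0.0400, edgeR adjusted p = 0.508), which was 0.16 without hypoxia + ITE replicate 6. The hypoxia change with ITE was 0.30 (SE 0.23, edgeR adjusted p = 0.471) and -0.04 without that library. Without ITE the hypoxia change of RPTOR was -0.17 (SE 0.23), and -0.05 without hypoxia + DMSO replicate 1.

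The inhibitory subunit AKT1S1 had a lowest, median and highest level of 70.9, 87.0 and 102 CPM in normoxia + DMSO and of 75.2, 82.9 and 96.6 CPM in normoxia + ITE. The levels were 81.1, 93.3 and 118 CPM in hypoxia + DMSO and 85.0, 100.1 and 127 CPM in hypoxia + ITE. Both hypoxic groups overlapped with their normoxic controls, although 3 libraries of hypoxia + ITE lay above all those of normoxia + ITE. The log2 fold change in hypoxia with ITE was 0.29 (SE 0.12, 95% interval 0.05 to 0.53), which did not pass the threshold (unadjusted p = 0.0193, edgeR adjusted p = 0.161). AKT1S1 has the most GC-rich transcript of the 10 genes (64.1%), and with offsets for GC content and length its log2 fold change was -0.02. Without hypoxia + ITE replicate 6 it was 0.21.

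DEPTOR, the other inhibitory subunit, was at a low level throughout. It ranged from 1.27 to 4.66 CPM in normoxia + DMSO (median 3.74) and from 2.07 to 3.96 CPM in normoxia + ITE (median 3.01). In hypoxia + DMSO it ranged from 2.62 to 8.25 CPM (median 4.50), and in hypoxia + ITE from 2.97 to 5.53 CPM (median 3.98). The ranges overlapped, and the 24 libraries held between 4 and 497 counts each. DEPTOR had the widest intervals: the log2 fold change in hypoxia was 0.41 without ITE (95% interval -0.14 to 0.96) and 0.48 with ITE (95% interval -0.07 to 1.03, edgeR adjusted p = 0.316).

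Of the amino acid branch, SESN1 ranged from 8.49 to 14.5 CPM in normoxia + DMSO (median 10.9) and from 7.30 to 13.1 CPM in normoxia + ITE (median 9.33). It ranged from 6.87 to 16.7 CPM in hypoxia + DMSO (median 11.9) and from 4.83 to 14.9 CPM in hypoxia + ITE (median 13.1). The value of 4.83 CPM was that of hypoxia + ITE replicate 6, while the other libraries of that group lay between 11.9 and 14.9 CPM. The log2 fold change in hypoxia with ITE was 0.25 (SE 0.21, edgeR adjusted p = 0.511) and 0.39 without that library. RRAGD had 444 counts in all 24 libraries together and 0 in both of the shallowest libraries. Its mean was 0.702 ± 0.324 CPM in normoxia + DMSO, 0.647 ± 0.422 in normoxia + ITE, 0.987 ± 0.630 in hypoxia + DMSO and 0.972 ± 0.738 CPM in hypoxia + ITE (SD, n = 6 each), with overlapping ranges. In a fit without the filter on low counts, RRAGD had a log2 fold change in hypoxia of 0.56 without ITE (SE 0.49) and of 0.56 with ITE (SE 0.49, edgeR adjusted p = 0.601).

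None of the 8 tested genes other than DDIT4 was called by edgeR in hypoxia with ITE, where 2.35% of all tested genes were called (1.89% higher and 0.46% lower). At an unadjusted p under 0.05 the count was 1 of 8 (AKT1S1), against 20.1% of all genes, and DESeq2 and limma called 0. In hypoxia without ITE 0 of these 8 were called by edgeR, DESeq2 or limma and 0 had an unadjusted p under 0.05, against 9.47% of all genes. The CPM ranges of the 8 genes overlapped between groups in all 4 comparisons, where the ranges of 0.69% (ITE in normoxia), 0.281% (ITE in hypoxia), 2.74% and 2.13% of all genes did not. Their median log2 fold change was -0.02 without ITE and 0.23 with ITE, beside -0.00 and 0.02 over all genes tested. The intervals of the 8 genes reached from -0.66 to 0.96 without ITE and from -0.60 to 1.03 with ITE. The sign was the same in both hypoxia comparisons for 5 of the 8, with 4 higher and 1, MTOR, lower.

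ITE itself changed none of the 9 tested genes past the threshold. In normoxia 0 of 9 were called by edgeR, against 0.0511% of all genes, and 0 of 9 had an unadjusted p under 0.05, against 1.46%. In hypoxia 0 of 9 were called, against 0.0597% of all genes, and 2 of 9, DDIT4 and RPTOR, had an unadjusted p under 0.05, against 9.56%. DESeq2 and limma also called 0 of 9 in both. Over the 8 genes other than DDIT4, the log2 fold change with ITE lay between -0.24 (DEPTOR) and 0.04 (RPTOR) in normoxia and between -0.17 (DEPTOR) and 0.51 (RPTOR) in hypoxia.

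**Figure D2:**
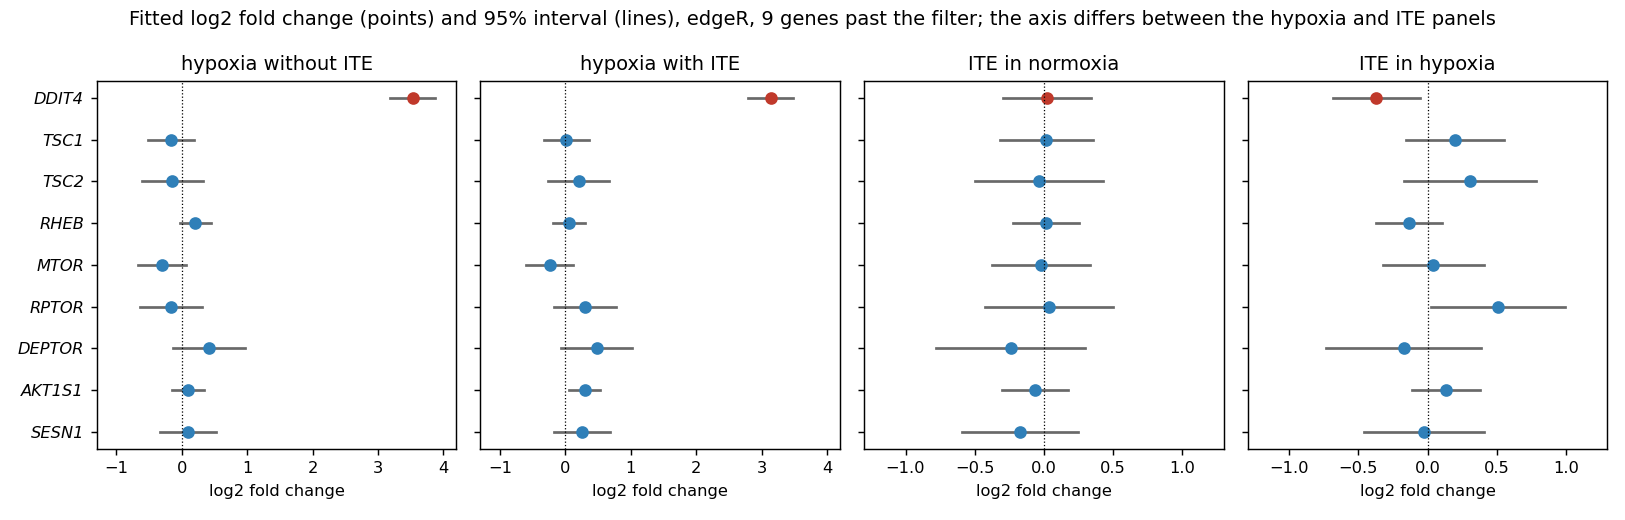
Fitted log2 fold change (point) and 95% interval (line) of the 9 genes that passed the filter, in each of the 4 comparisons, with different horizontal axes for hypoxia and ITE. DDIT4 stands at 3.53 and 3.14 in the hypoxia panels, whereas the other 8 lie between -0.30 and 0.48 there. In the ITE panels the values of all 9 lie between -0.37 and 0.51.

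The spread within groups, on the log2 scale, was larger in hypoxia than in normoxia for all tested genes but DEPTOR. It was 0.12 in normoxia and 0.47 in hypoxia for MTOR, 0.15 and 0.42 for TSC1, and 0.28 and 0.55 for TSC2. For DDIT4 it was 0.27 and 0.28. Over all genes past the filter, the median absolute deviation from the group mean was 0.09 to 0.16 in normoxic libraries and 0.14 to 0.63 in hypoxic libraries. The wider spread in hypoxia was therefore not particular to the genes described. In hypoxia + ITE replicate 6, TSC2 and RPTOR, the most GC-rich of the tested transcripts after AKT1S1, were high, and SESN1, at 40.6% GC the least GC-rich of the 10, was low. AKT1S1 reached its highest level of the group there (127 CPM), while DDIT4, at 58.1% GC, was low. Hypoxia + DMSO replicate 1 held the lowest TSC1, MTOR, RPTOR and TSC2 of its group, genes with transcripts of 6415 to 8721 bases, and the highest RHEB and SESN1, at 2046 and 5664 bases. The part of GC content and length in these differences was not tested gene by gene.

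**Figure D3:**
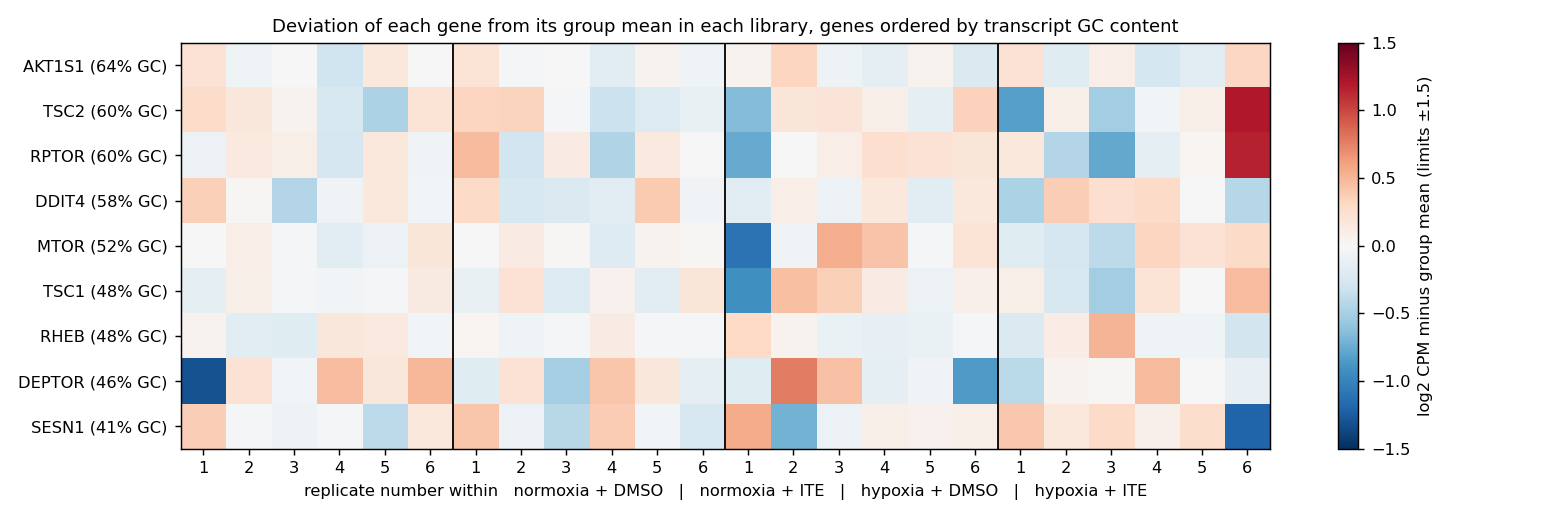
Log2 CPM minus the group mean for the 9 tested genes (rows, ordered by the GC content of the transcript) in the 24 libraries (columns, by group and replicate number). The strongest colours of several genes at once fall in hypoxia + DMSO replicate 1, where TSC1, MTOR, RPTOR and TSC2 are low, and in hypoxia + ITE replicate 6, where TSC2 and RPTOR are high and SESN1 is low.

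The nearest relatives of DDIT4 and SESN1 did not follow DDIT4. DDIT4L, the paralogue of DDIT4, had 0 counts in all 24 libraries. SESN3 had 17 counts in all. SESN2, a sestrin that binds leucine, had means of 24.5 ± 2.51 CPM in normoxia + DMSO, 20.2 ± 3.01 in normoxia + ITE, 22.7 ± 3.88 in hypoxia + DMSO and 20.6 ± 1.41 CPM in hypoxia + ITE (SD, n = 6 each). Its log2 fold change in hypoxia was -0.16 without ITE (edgeR adjusted p = 0.751) and 0.03 with ITE (edgeR adjusted p = 0.928).

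The rest of the pathway was followed in lists of 87 genes, of which 84 were tested. They covered the remaining subunits of mTORC1 and the TSC complex, Rag GTPases and Ragulator, the GATOR, KICSTOR and folliculin complexes, amino acid sensors, PI3K, AKT and mTORC2, AMPK and LKB1, and mTORC1 substrates. Genes for the turnover of DDIT4, transcription factors reported at DDIT4 and other hypoxia routes to mTORC1 were also listed. In hypoxia without ITE 1 of the 84 rose and 0 fell, and in hypoxia with ITE 2 rose and 0 fell. These are 1.19% and 2.38% of the 84, close to the 1.3% and 2.35% called over all genes. At an unadjusted p under 0.05 the counts were 15 (17.9%) and 19 (22.6%) of 84, against 9.47% and 20.1% of all genes. DESeq2 called 3 (3.57%, against 2.12% of all genes) and 6 (7.14%, against 5.83%), and limma 14 (16.7%, against 7.16%) and 5 (5.95%, against 5.16%). The median log2 fold change of the 84 was -0.04 without ITE and 0.01 with ITE. With ITE as the variable, 0 of 84 were called by edgeR in either oxygen level, and 4 in normoxia (4.76%, against 1.46% of all genes) and 8 in hypoxia (9.52%, against 9.56%) had an unadjusted p under 0.05. DESeq2 called 1 in normoxia (1.19%, against 0.119% of all genes) and 0 in hypoxia, and limma 2 (2.38%, against 0.954% of all genes) and 0. CEBPB, a transcription factor reported at DDIT4, was called by both in normoxia (edgeR log2 fold change -0.59, edgeR adjusted p = 0.144). With a block for replicate number in the compared groups alone, edgeR called 6 pathway genes for ITE in normoxia, and 255 of 11511 genes in all.

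BNIP3, a mitochondrial protein of the BCL2 family that has been reported to bind RHEB, was the pathway gene that rose in both hypoxia comparisons. In normoxia + DMSO it ranged from 61.6 to 98.6 CPM (median 79.6) and in hypoxia + DMSO from 446 to 539.98 CPM (median 468). With ITE it ranged from 50.5 to 88.9 CPM in normoxia (median 81.9) and from 296 to 463 CPM in hypoxia (median 428). The groups did not overlap, and BNIP3 was higher by 2.55 on the log2 scale without ITE (SE 0.14, edgeR adjusted p = 2.71e-13) and by 2.40 with ITE (SE 0.14, edgeR adjusted p = 8.65e-13). BNIP3 was listed among the other hypoxia routes to mTORC1, with earlier results of these data known. Its p-values are therefore not an independent test of the pathway.

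IRS2, an adaptor that couples the insulin receptor to PI3K, rose in hypoxia with ITE. Its level ranged from 26.5 to 39.8 CPM in normoxia + ITE (median 33.1) and from 37.6 to 71.9 CPM in hypoxia + ITE (median 52.3), with a slight overlap. Its log2 fold change was 0.70 (SE 0.16, edgeR adjusted p = 0.0154), or 0.59 without hypoxia + ITE replicate 6 (edgeR adjusted p = 0.0236). Without ITE the value was 0.34 (SE 0.16, edgeR adjusted p = 0.500), and the difference between the 2 changes was 0.36 (SE 0.23, edgeR adjusted p = 0.915). With offsets for GC content and length IRS2 was also called without ITE (log2 fold change 0.60, adjusted p = 0.0441). In normoxia IRS2 had a log2 fold change with ITE of -0.41 (SE 0.16, unadjusted p = 0.0156, edgeR adjusted p = 0.9998), and the normoxia + ITE libraries are the controls of the comparison with ITE. This lower level of IRS2 was called in the fit to the compared groups alone with the replicate block (edgeR adjusted p = 0.00143). The call of IRS2 was lost without normoxia + ITE replicate 4 (log2 fold change 0.64, adjusted p = 0.0548), with total counts in place of TMM (adjusted p = 0.0800) and in fits to the compared groups alone (adjusted p = 0.0527, and 0.132 with the replicate block).

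edgeR called no gene in the lists nearest to the genes described. DESeq2 did call genes there, RRAGA and NR3C1 in hypoxia without ITE and LAMTOR4, EIF4EBP1, HIF1A and ATF4 with ITE, and limma called RRAGA, NR3C1, ATF4 and others without ITE. TBC1D7, the third subunit of the TSC complex, and MLST8, a core subunit of mTORC1, complete both complexes. TBC1D7 had log2 fold changes of -0.03 and -0.08 in hypoxia without and with ITE (edgeR adjusted p = 0.982 and 0.858), and MLST8 had 0.00 and 0.59 (edgeR adjusted p = 0.997 and 0.165). Among 9 Rag GTPase and Ragulator genes the values lay between -0.15 and 0.999 with ITE, and among 15 GATOR, KICSTOR and folliculin genes between -0.39 and 0.40. The 15 substrates and effectors of mTORC1 had a median of 0.04 without ITE and 0.10 with ITE. For the 8 transcription factors reported at DDIT4, the values lay between -0.23 and 0.43 without ITE and between -0.36 and 0.41 with ITE.

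**Figure D4:**
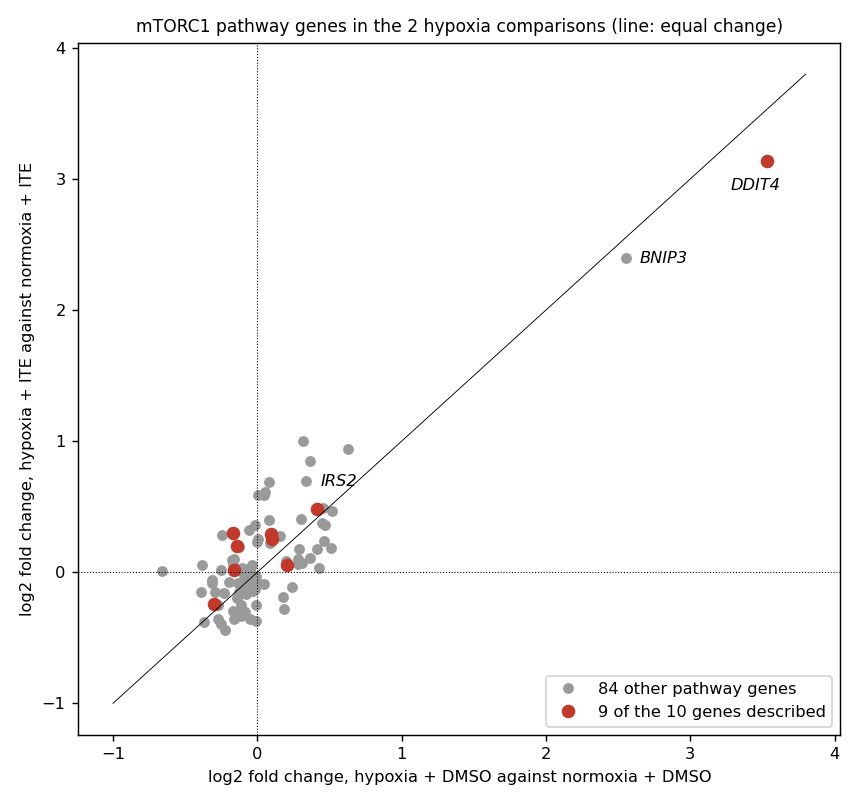
Log2 fold change in hypoxia without ITE (horizontal axis) and with ITE (vertical axis) of 84 pathway genes (grey) and 9 of the 10 genes described (red), with the line of equal change. DDIT4 (3.53 and 3.14) and BNIP3 (2.55 and 2.40) lie apart from all the others, of which the highest on either axis is at 0.999.

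The genes whose change over the 24 libraries was most like that of DDIT4 were NDRG1, PFKFB4, RAB20, BNIP3 and ADM. Likeness was the root mean square difference, over the libraries, of log2 CPM relative to each gene's mean in normoxia + DMSO, among 8998 genes with a mean of at least 10 CPM. It was 0.31 for NDRG1, 0.44 for PFKFB4, 0.64 for RAB20, 0.68 for BNIP3 and 0.84 for ADM, beside a median of 2.40 over all genes compared. The measure is a description only, since it rests on the hypoxia change for which DDIT4 was chosen. It therefore picks genes with a hypoxia change of similar size, and the median largely reflects the size of the DDIT4 change. NDRG1, a cytoplasmic stress-response protein, had means of 33.2 ± 6.02 and 316 ± 58.6 CPM in normoxia and hypoxia without ITE and of 36.5 ± 3.26 and 283 ± 48.6 CPM with ITE (SD, n = 6 each). PFKFB4, an enzyme that sets the rate of glycolysis, had means of 5.05 ± 1.17 and 52.8 ± 6.69 CPM without ITE and of 3.67 ± 1.13 and 45.7 ± 11.5 CPM with ITE. In hypoxia with ITE against hypoxia with DMSO, NDRG1 had a log2 fold change of -0.15, PFKFB4 of -0.20, RAB20 of -0.00, BNIP3 of -0.21 and ADM of 0.00, beside -0.37 for DDIT4. The value of ADM includes hypoxia + ITE replicate 6 at 239 CPM, while the other libraries of that group lay between 62.4 and 115 CPM. Its median was 112 CPM in hypoxia + ITE and 124 CPM in hypoxia + DMSO.

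**Figure D5:**
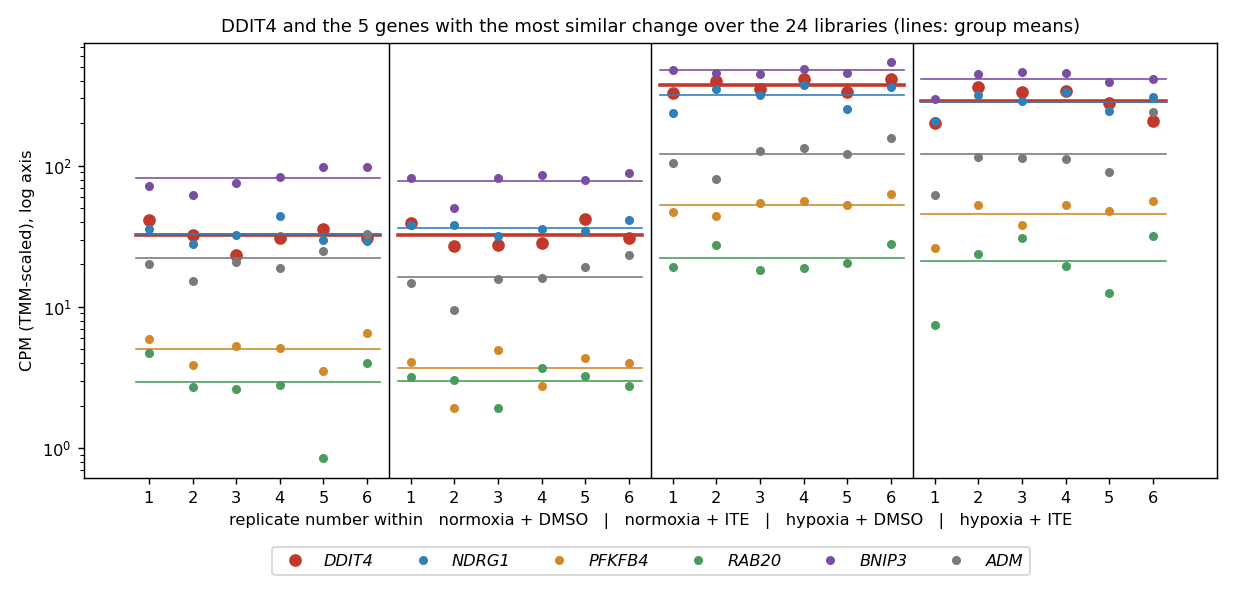
Level in CPM (log axis) of DDIT4 and the 5 genes most like it in the 24 libraries (points, by group and replicate number), with lines at the group means. All 6 genes are higher in the hypoxic groups, and hypoxia + ITE replicate 1 is the lowest library of that group for each of them.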

How the data were processed

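The authors deposited raw read counts, 1 value per gene symbol for each of the 24 libraries. Per the labels and the methods, reads from a strand-specific polyA kit were trimmed with Trim Galore 0.3.3 and aligned to GRCh37 with HISAT2, reads that did not map uniquely were removed with Picard 2.0.1, and reads within UCSC genes were counted with HTSeq 0.5.4p3. The strand setting of the counting is not given in the sources used here, so reads from a gene and an antisense partner may not be separated. Reads shared with near-identical copies were lost with the non-unique reads.

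Counts were analysed in R 4.3.3 with edgeR 4.0.16. Genes were kept by filterByExpr with a minimum count of 10, libraries were scaled by TMM, and the quasi-likelihood fit took in all 24 libraries, each group having its own mean. P-values were two-sided and Benjamini-Hochberg adjusted over 11735 genes, with a threshold of 0.05. Intervals came from the standard error and the t quantile of the fit. Levels are counts divided by the TMM-scaled library size (CPM), and log2 CPM used a prior count of 2. Levels per kb used the length of the canonical, or otherwise the longest, transcript in GENCODE for GRCh37. Upstream sequences are from RefSeq (GRCh38.p14), where 7 of the 10 genes matched and AKT1S1, DEPTOR and RRAGD had no entry.

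Groups and replicate numbers came from the labels, and the methods state that replicates were independent. No 2 libraries of a group agreed within sampling noise (chi-square per degree of freedom at least 3.70). The members and the pathway lists were chosen with earlier results of these data known. Pathway genes were named where called in any comparison with a mean of at least 1 CPM, besides SESN2, SESN3 and DDIT4L and the 5 genes most like DDIT4, and TBC1D7, MLST8 and the genes that only DESeq2 or limma called were added after their values were seen. Alternatives were DESeq2 1.42.0, limma 3.58.1 with sample weights, other scalings, no filter, GC content and length offsets (97.6% of genes had both), a replicate block, the compared groups alone, each library left out, and 3 libraries left out together, the last chosen after seeing the data. The scripts were tested on simulated data.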

Additional observations from a re-analysis of the deposited data

Results flagged for a closer look

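In 5 of 40 groups of 6 libraries, over the 10 genes, 1 library lay farther from the others than Dixon's criterion allows, where chance gives about 1 in 20 groups, or 2. In hypoxia + ITE replicate 6, TSC2 was at 94.6 CPM while the other libraries of the group lay between 23.0 and 43.7 CPM, RPTOR was at 66.6 CPM against 17.5 to 33.4 CPM, and SESN1 was at 4.83 CPM against 11.9 to 14.9 CPM. This is the library whose deviations were related to GC content. RPTOR in hypoxia + DMSO replicate 1 was at 12.9 CPM, against 22.0 to 26.1 CPM. RRAGD in normoxia + DMSO replicate 4 was at 1.29 CPM, against 0.381 to 0.713 CPM, from 35 counts.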

How the results depend on the processing

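Under 35 alternatives, 24 of which left out 1 library, 0 of the 8 tested genes other than DDIT4 were called in any comparison. DDIT4 was called in hypoxia without ITE in each, which its choice on that comparison fixes. The log2 fold change of DDIT4 lay between 3.44 and 3.69 without ITE and between 2.92 and 3.32 with ITE, and its change with ITE in hypoxia between -0.56 and -0.16. Of 1120 values of the other 8 genes, 63 changed sign and 4 moved by more than 1 SD, all of AKT1S1 under GC content and length offsets. The number of pathway genes called in any comparison, 2 in the model reported, was 9 with DESeq2, 1 with total counts, 4 with the compared groups alone, 17 with limma's sample weights, 5 with GC content and length offsets and 7 without the 3 libraries, a choice made after seeing the data. Leaving out 1 library gave 1 (without normoxia + ITE replicate 4) to 7 (without hypoxia + ITE replicate 4, 5 or 6). The calls over all genes moved too: in hypoxia without and with ITE they were 152 and 276 in the model reported, 249 and 684 with DESeq2, 840 and 605 with limma, and 124 and 172 with total counts. With the replicate block the pathway count was 3, 9 in the compared groups alone with the block, and 8 with the offsets and the block. Same-numbered libraries correlated above 0.1 in 21 of 36 pairs, and 14 of 24 libraries correlated best with their own number. Between normoxia + DMSO and normoxia + ITE, 5 of 6 pairs exceeded 0.1 (median 0.26), and between the hypoxic groups 2 of 6 (median -0.01). These values point towards pairing for at least some numbers. The model reported was unpaired, because not every pair exceeded 0.1, and its results for ITE in normoxia ignore any pairing. For ITE in normoxia, 6 pathway genes and 255 genes in all were called in the compared groups with the block. Without it these were 1 and 30, and in the model reported 0 and 6. The block left the log2 fold change of DDIT4 at 3.54 without and 3.14 with ITE. The causes of these differences were not tested. RRAGD and SESN3 were tested only without the filter on low counts, and DDIT4L, at 0 in all libraries, could not be tested.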
